A study of Mus musculus with 103 samples.

Results

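The matrix metalloproteinases, their tissue inhibitors and the ADAMTS proteases make up a large share of the secreted and surface-bound enzymes and inhibitors that act on the arterial matrix. Their genes were followed here across the aortic arch of mice with and without apolipoprotein E. Members were chosen by symbol alone: every symbol of the form Mmp, Timp, Adamts or Adamtsl followed by a number. The rule found 51 genes of the 51456 symbols in the deposited tables, namely 23 Mmp, 4 Timp, 19 Adamts and 5 Adamtsl genes. The rule itself uses no measured value.

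The study asked how an antibody that neutralizes sclerostin, a secreted inhibitor of Wnt signalling, alters aortic gene expression. All mice were ovariectomized C57BL/6 females. Fat supplied 42% of the calories in their diet from 5 to 6 weeks of age. They were ovariectomized at 7 to 8 weeks, and were dosed from 9 to 10 weeks. Groups were ApoE-KO mice on Scl-Ab, ApoE-KO mice on vehicle, WT mice on Scl-Ab and WT mice on vehicle. Scl-Ab (r13C7, a rat-framework form of romosozumab) was given subcutaneously once weekly at 10 mg/kg. In that order the groups held 9, 8, 6 and 8 mice after 3 weeks (day22, aged 12 to 13 weeks), 10, 10, 9 and 5 after 8 weeks (day57, 17 to 18 weeks) and 10, 10, 8 and 10 after 16 weeks (day113, 25 to 26 weeks). Each library, of 57 from knockout and 46 from wild-type mice, came from 1 mouse: its arch was flushed, freed of surrounding fat with a swab, frozen and pulverized whole. Mice were randomized to treatment. ApoE-KO mice lack the protein in every tissue, and the ovariectomy and the diet were shared by WT mice, so no group stands for an intact or lean animal. Below, knockout and wild type stand for ApoE-KO and WT.

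Matrix metalloproteinases are zinc endopeptidases made as inactive precursors and switched on by removal of a propeptide. They are grouped by preferred substrate into collagenases, gelatinases, stromelysins and membrane-bound enzymes, and the 4 Timp proteins block them at the active site. ADAMTS enzymes share the metalloproteinase fold and add thrombospondin repeats. They cleave proteoglycans or procollagen propeptides, and the ADAMTS-like proteins have the repeats without the protease. In atherosclerosis these enzymes are best known for remodelling the intima and for breaking down elastin and collagen around macrophage foam cells.

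Levels are given in FPKQ, the unit named in the deposited tables, read here as an fpkm-type level per length of transcript. Column sums ran from 494635.2 to 826445.4 and each library had 12405 to 13338 genes at 1 or more, while the number of reads is unknown. Log2 changes come from limma on log2(FPKQ + 1), which understates the change of low genes, with adjusted p-values over 14637 genes that reached 1 in at least 5 libraries. A gene was called at an adjusted p under 0.05. The tissue label was met by the smooth muscle genes Acta2 (1830 to 10212 FPKQ) and Myh11 (298.4 to 1371 FPKQ), high in every library. Apoe was at most 18.2 FPKQ in knockout libraries and at least 219.9 FPKQ in wild-type libraries. The 5 libraries that stood apart from their group by 3 or more members were knockout Scl-Ab replicate 9 and wild-type vehicle replicate 4 of week 3, wild-type vehicle replicate 4 of week 8, and knockout vehicle replicate 2 and wild-type Scl-Ab replicate 6 of week 16. In the first pair, the summed level of 10 smooth muscle markers was 5063 and 7036 FPKQ, against 12320 to 19660 and 18830 to 21390 FPKQ in the other libraries of their groups, and markers of white and brown fat and of heart muscle were the highest of the group.

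Of the 51 genes, 36 passed the filter and were tested: 15 Mmp, 4 Timp, 12 Adamts and 5 Adamtsl. Another 14 did not reach 1 FPKQ in any library. These were the collagenases Mmp1a and Mmp1b, the stromelysin Mmp10, the matrilysin Mmp7, the enamel protease Mmp20, Mmp21, Mmp24 and Mmp25, and Adamts3, Adamts13, Adamts16, Adamts17, Adamts18 and Adamts20. Adamts13, the von Willebrand factor protease made mainly in liver, was at 0 in 81 libraries and at most 0.0533 FPKQ. Mmp1a, Mmp1b and Mmp20 were listed at 0 in all libraries but 1 each. Nearest to the limit were Adamts3, a procollagen N-propeptidase, which peaked at 0.937 FPKQ, and Mmp25, a membrane-anchored enzyme of neutrophils, which peaked at 0.899 FPKQ. Adamts19 reached 1.07 FPKQ in 1 library and was below the filter.

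Among tested members the inhibitors Timp3 and Timp2 were the most abundant. Over all libraries the median level was 450.2 FPKQ for Timp3, the inhibitor that binds to the matrix, and 389.7 FPKQ for Timp2. The highest proteases by median were the stromelysin Mmp3 (92.8 FPKQ), the gelatinase Mmp2 (78.1 FPKQ) and Mmp23 (76.1 FPKQ), a small member without a hemopexin domain. Adamts1, a versican- and aggrecan-cleaving enzyme, led the ADAMTS proteases at 53.7 FPKQ. Mmp12, macrophage elastase, ranged from 0.134 to 404.7 FPKQ.

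On chromosome 9, 10 Mmp genes lie side by side (GRCm38, chr9:7272514-7699585, a stretch of 427.1 kb), in the order Mmp13, Mmp12, Mmp1b, Mmp3, Mmp1a, Mmp10, Mmp8, Mmp27, Mmp20 and Mmp7, with 0 other protein-coding genes between them. The promoters of Mmp13, Mmp12, Mmp3, Mmp8 and Mmp27, which passed the filter and are described below, are shown. Mmp13 and Mmp8 passed it through knockout libraries. The lines give RefSeq promoter sequence (GRCm38.p6, plus strand) from 120 bases before the annotated start to the 12th base from it, 132 bases each. Capitals mark the AP-1 motif TGANTCA, which reads the same on either strand, and the TATA motif TATAAA, sought on the strand of the gene. Mmp10, below 1 FPKQ in every library, is included as a neighbour. Mmp12 has 2 starts in the table, and the one shown is the one whose window holds the motif.
Mmp13, chr9:7272394-7272525: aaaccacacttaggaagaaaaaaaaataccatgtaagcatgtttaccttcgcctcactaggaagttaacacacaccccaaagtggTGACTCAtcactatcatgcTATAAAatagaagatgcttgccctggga
Mmp12, chr9:7347254-7347385: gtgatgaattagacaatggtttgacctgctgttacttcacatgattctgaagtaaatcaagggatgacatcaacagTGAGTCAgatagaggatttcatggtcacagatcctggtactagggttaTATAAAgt
Mmp3, chr9:7445702-7445833: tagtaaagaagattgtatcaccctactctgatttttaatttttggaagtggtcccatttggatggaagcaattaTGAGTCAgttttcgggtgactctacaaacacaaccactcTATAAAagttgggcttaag
Mmp10, chr9:7502222-7502353: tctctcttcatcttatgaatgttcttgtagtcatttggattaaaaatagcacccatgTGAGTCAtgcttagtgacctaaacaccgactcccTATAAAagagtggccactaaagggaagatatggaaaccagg
Mmp8, chr9:7558309-7558440: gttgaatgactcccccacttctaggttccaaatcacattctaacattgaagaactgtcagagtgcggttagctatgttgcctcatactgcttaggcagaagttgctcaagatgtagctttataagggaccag
Mmp27, chr9:7571276-7571407: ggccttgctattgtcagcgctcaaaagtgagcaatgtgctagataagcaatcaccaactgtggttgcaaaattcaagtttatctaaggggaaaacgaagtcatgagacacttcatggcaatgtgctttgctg

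In Mmp13, Mmp12, Mmp3 and Mmp10 the AP-1 letters began at -35, -44, -46 and -63 from the start. The TATAAA letters began at -16, 4, -7 and -29 in the same order, so that in Mmp12 they lie past the annotated start. Over the whole 300-base promoters of the table (250 bases before to 50 after the start), TGANTCA was found in 8 of the 10 cluster genes, missing in Mmp8 and Mmp27. It was found in 0 of the 26 other members with a promoter in the table (36 of 51 members matched). A gene counted if any of its promoters matched, as did 8.97% of all 27025 genes, while 7.81% of all 32851 promoters did. TATAAA was found in 8 of the 10 cluster genes, in 3 of the 26 other members and in 8.32% of all promoters, a share counted by promoter and not by gene. The cluster genes that stayed below 1 FPKQ, Mmp1a, Mmp1b, Mmp10, Mmp20 and Mmp7, all held the AP-1 letters, whereas Mmp8 and Mmp27, which were higher in knockout aorta, did not. A match describes the letters and no more.

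Loss of ApoE went with higher levels of a recurring set of members. In week 16, 14 of the 36 tested members were higher and 3 lower in knockout vehicle than in wild-type vehicle aorta, against 15.5% of all tested genes higher and 21.1% lower (36.7% either way). On Scl-Ab the counts were 13 higher and 6 lower in knockout against wild type, where 17.6% and 26.3% of all genes were. In week 8 the counts were 10 higher and 2 lower on vehicle (10.2% and 5.32% of all genes) and 11 higher and 2 lower on Scl-Ab (14.3% and 17.9%). In week 3 they were 6 higher and 7 lower on vehicle (11.6% and 13.4%) and 19 higher and 1 lower on Scl-Ab (13.3% and 12.4%). The 13 called on vehicle in week 3 became 6 in a fit of the compared groups alone, 5 with components of circadian clock genes as covariates, and 8 without the 29 libraries rich in markers of neighbouring tissue. With 1 library left out they numbered 10 to 18, the most being 6 higher and 12 lower without wild-type vehicle replicate 4. The 20 called on Scl-Ab became 11 in the compared groups alone, 13 with scores of those markers as covariates, and 4 without the 29 libraries. With 1 library left out they numbered 14 to 22, the most being 20 higher and 2 lower without knockout Scl-Ab replicate 9. Several members were low in wild type: Mmp13, Mmp8, Adamts4 and Adamts7 reached 1 FPKQ in 0, 1, 2 and 1 of 46 wild-type libraries and in 47, 35, 36 and 25 of 57 knockout libraries. They entered the tests through knockout libraries, so these counts are not read as a property of the families. The median log2 change in week 16 on vehicle was 0.01 over tested members and -0.06 over all genes.

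The members Mmp12, Mmp13, Mmp8, Mmp27, Mmp19 and Timp1 were higher in knockout aorta in all 6 comparisons, at 3 times and under both treatments. In the vehicle comparison of week 3, Mmp12 and Mmp19 kept their calls under every alternative run, while Mmp27, Mmp8, Timp1 and Mmp13 lost theirs with clock components as covariates (limma adjusted p = 0.122, 0.103, 0.122 and 0.216) and some of them under other alternatives too. On Scl-Ab in week 3, Mmp27, Mmp8 and Mmp13 lost theirs without the 29 libraries (limma adjusted p = 0.0938, 0.196 and 0.202). In week 16, 12 members were higher under both treatments, of the 14 on vehicle and the 13 on Scl-Ab. They were those 6 with Mmp3, Mmp14, Mmp2, Timp2, Adamts4 and Adamts7. Adamts1 and Adamts6 were lower under both. Called in none of the 6 comparisons were Adamts10, Adamts12, Adamts14, Adamtsl5, Mmp15 and Mmp28. Adamtsl4 was lower in knockout on vehicle in week 3 and higher on Scl-Ab in weeks 3 and 16. In a bulk tissue, fewer cells of a type and less RNA per cell cannot be told apart, and the same holds for more of either.

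**Figure D1:**
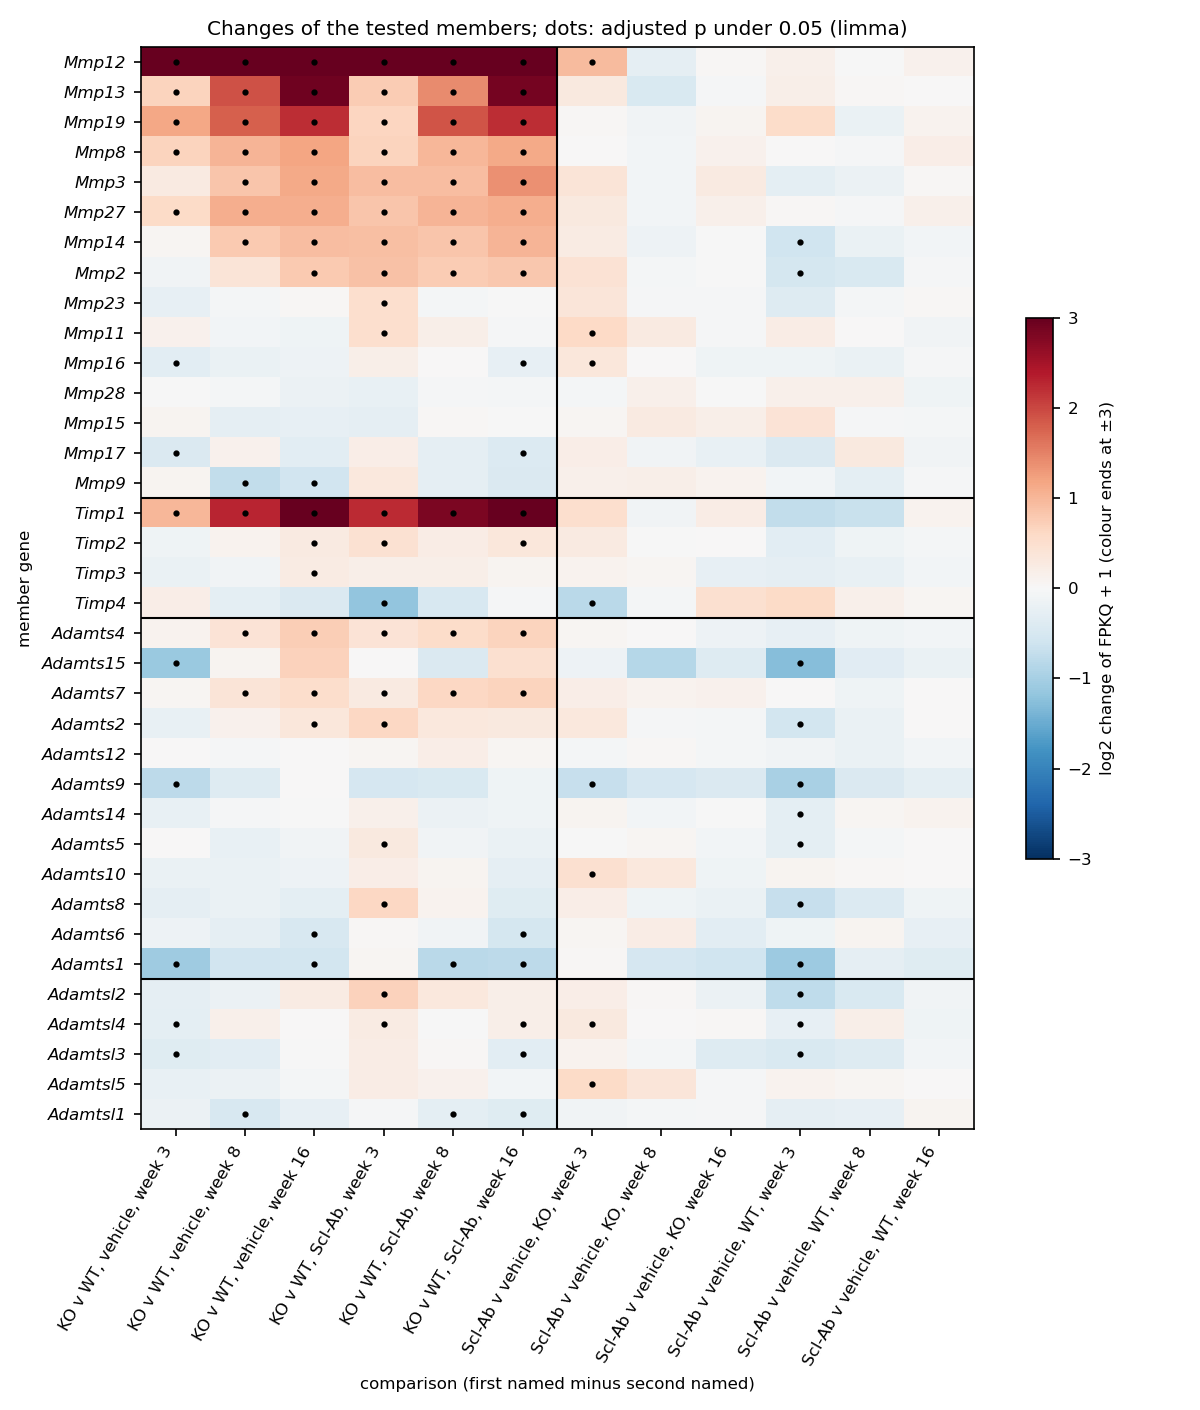
Log2 changes of the 36 tested members, from top to bottom by family, in 12 comparisons from left to right, with colour for the change on the log2(FPKQ + 1) scale, ending at -3 and 3, and dots for adjusted p under 0.05. The 6 comparisons of knockout (KO) against wild type (WT) carry dots in every week, whereas those of Scl-Ab against vehicle carry them in week 3 alone.

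Mmp12, macrophage elastase, separated the genotypes in every library. In week 3 the lowest, median and highest values were 8.83, 36.6 and 217.6 FPKQ in knockout vehicle, against 0.248, 0.587 and 0.996 FPKQ in wild-type vehicle libraries. In week 8 they were 103.5, 165.1 and 222.3 FPKQ in knockout vehicle libraries, against 0.959, 0.186, 0.164, 1.54 and 1.30 FPKQ in the 5 wild-type vehicle libraries. In week 16 they were 121.5, 185.9 and 404.7 FPKQ in knockout vehicle, against 0.350, 0.969 and 2.29 FPKQ in wild-type vehicle libraries. Over all libraries the lowest knockout value exceeded the highest wild-type value, 3.87 FPKQ.

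The Mmp12 means of knockout over wild-type vehicle libraries stood at ratios of 94.6, 196.6 and 188.0 in weeks 3, 8 and 16. The log2 changes were 4.59 ± 0.28, 6.52 ± 0.31 and 6.59 ± 0.25 (SE; limma adjusted p = 1.58e-25, 7.73e-34 and 5.87e-41). On Scl-Ab they were 5.40, 6.26 and 6.5. Macrophage markers were higher as well: 11 of 12 were called higher in knockout vehicle libraries in week 16 (15.5% of all genes), Mertk being the exception. Their summed level was 1702 to 5146 FPKQ (median 2868), against 380.3 to 796.4 FPKQ (median 480.9) in wild-type vehicle libraries. The 10 smooth muscle markers were all called lower (21.1% of all genes), with a summed median of 13203 FPKQ in knockout and 20388 FPKQ in wild-type vehicle libraries. Whether these cell markers have a part in the change of Mmp12 or of the members below was not tested.

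**Figure D2:**
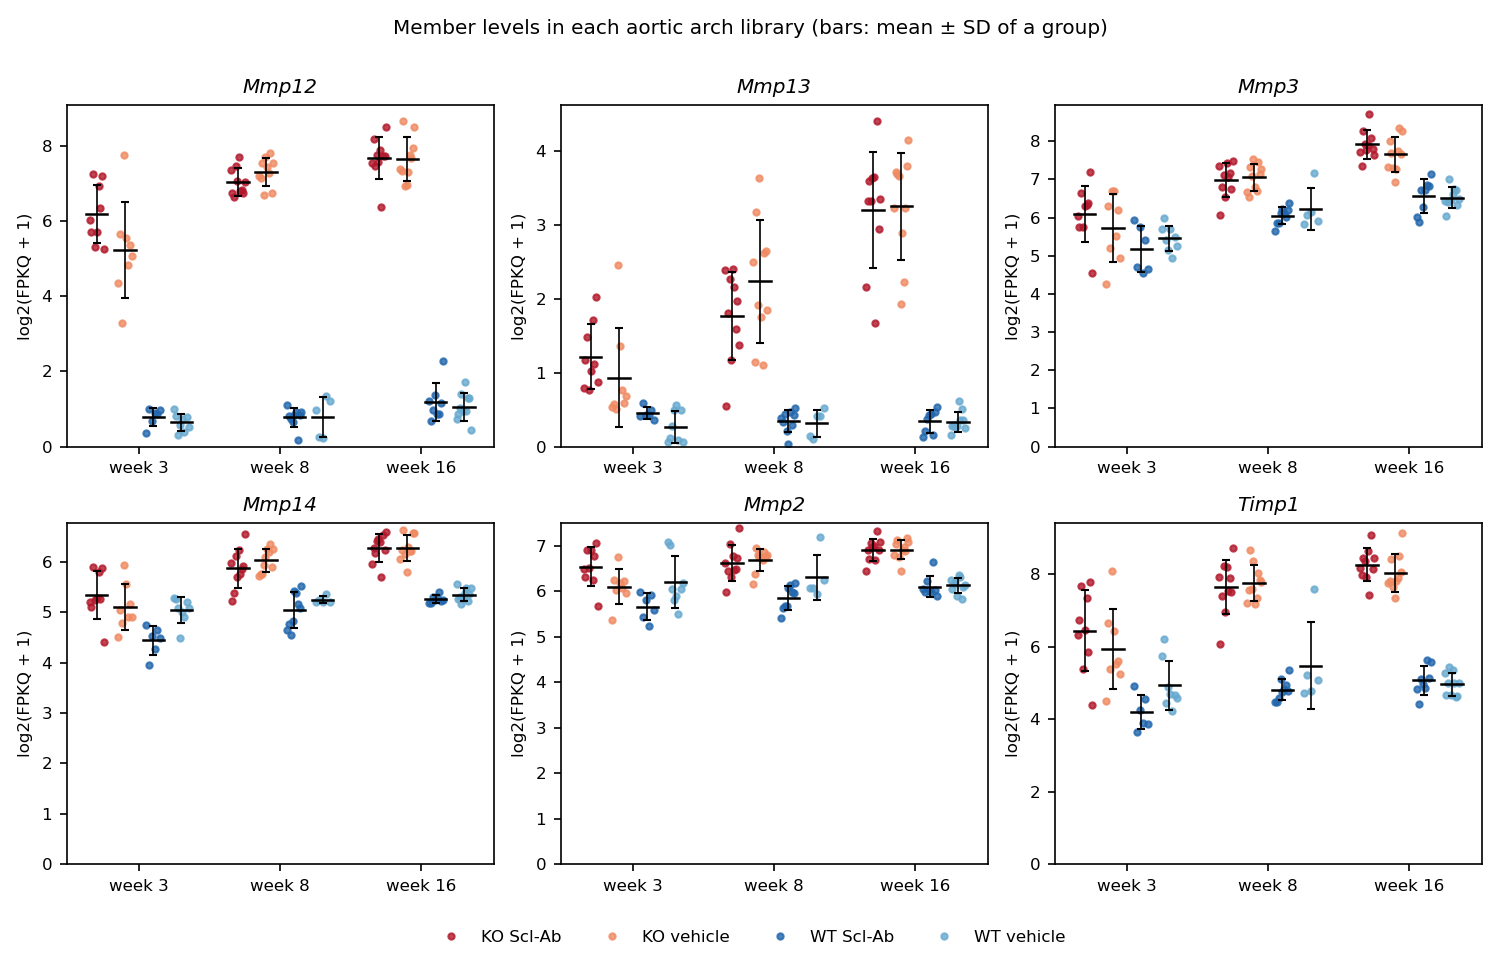
Levels as log2(FPKQ + 1) of Mmp12, Mmp13, Mmp3, Mmp14, Mmp2 and Timp1 in every library (points), by week, in knockout (KO) Scl-Ab, knockout vehicle, wild-type (WT) Scl-Ab and wild-type vehicle mice, with bars for the mean and SD of a group. Mmp12 lies at 8.83 to 404.7 FPKQ in knockout and 0.134 to 3.87 FPKQ in wild-type libraries, while Mmp2 and Mmp14 overlap between genotypes in week 3 and part on vehicle in week 16.

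The collagenases Mmp13 and Mmp8 were almost silent in wild-type aorta. Mmp13, the main interstitial collagenase of rodents and a product of hypertrophic cartilage, was at 2.80, 10.0 and 16.8 FPKQ (lowest, median, highest) in knockout vehicle libraries of week 16, against 0.113, 0.221 and 0.532 FPKQ in wild-type vehicle libraries. It averaged 4.47 ± 3.25 FPKQ in knockout (SD, n = 10) and 0.254 ± 0.157 FPKQ in wild-type vehicle libraries (n = 5) in week 8, and 1.15 ± 1.39 FPKQ in knockout and 0.216 ± 0.186 FPKQ in wild-type vehicle libraries (n = 8 each) in week 3. The groups parted fully in weeks 8 and 16 and overlapped in week 3. Log2 changes were 0.67 ± 0.26, 1.92 ± 0.28 and 2.92 ± 0.23 in weeks 3, 8 and 16 (SE; limma adjusted p = 0.0488, 6.03e-08 and 1.2e-19). The week 3 call was lost without 1 library in 11 of 16 cases and under 6 of the 8 alternatives. Cartilage markers were also higher in week 16. Of 11 tested chondrocyte markers 10 were called higher, among them Col2a1 and Sox9, against 15.5% of all tested genes. The summed level of the list was 97.97 to 630.4 FPKQ in knockout vehicle and 29.4 to 55.1 FPKQ in wild-type vehicle libraries. In week 8, 3 of the 11 were higher (10.2% of all genes), and in week 3 none of the 11 (11.6%). Of 5 tested osteoclast markers, 4 were higher in week 16, beside the same 15.5% of all genes.

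Mmp8, the collagenase of neutrophil granules, averaged 1.67 ± 0.880 FPKQ in knockout vehicle and 0.118 ± 0.0914 FPKQ in wild-type vehicle libraries of week 16 (SD, n = 10 each). The log2 change was 1.19 ± 0.16 (SE; limma adjusted p = 1.16e-09) with no overlap. Of 5 tested neutrophil markers only Csf3r was called higher, a receptor that macrophages also carry, where 15.5% of all genes were higher. The summed neutrophil list was at 5.32 to 56.8 FPKQ in knockout vehicle and at 3.83 to 19.4 FPKQ in wild-type vehicle libraries, with Elane at 0 in every wild-type one. In the wild-type Scl-Ab group of week 16 a single library, replicate 6, held 2.64 FPKQ of Mmp8, against 0 to 0.403 FPKQ in the other 7, and it also held the highest neutrophil sum, 156.9 FPKQ against 1.73 to 10.6 FPKQ. On Scl-Ab the Mmp8 change of week 16 was 1.14 ± 0.17 (SE; limma adjusted p = 2.51e-08), and it lay between 1.09 and 1.36 with each library left out in turn.

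The stromelysin Mmp3, which cleaves proteoglycans and fibronectin and activates other Mmp precursors, differed from its cluster neighbours in being abundant in wild-type aorta. In week 16 it was at 122.0, 204.2 and 325.8 FPKQ (lowest, median, highest) in knockout vehicle, against 64.98, 87.4 and 127.8 FPKQ in wild-type vehicle libraries. The ranges overlapped at their ends. Its log2 change was 1.13 ± 0.22 in week 16 and 0.83 ± 0.27 in week 8 (SE; limma adjusted p = 1.18e-05 and 0.0225). In week 3 the mean was 60.4 FPKQ in knockout and 43.9 FPKQ in wild-type vehicle libraries, with a change of 0.27 and an adjusted p of 0.414 from limma. Wild-type vehicle means were 43.9, 79.1 and 92.5 FPKQ in weeks 3, 8 and 16. Comparisons between weeks may include the 3 sequencing batches, which are not assigned to libraries. The week 8 wild-type vehicle mean holds replicate 4 at 143.6 FPKQ, against 56.1 to 70.3 FPKQ in the other 4 libraries, and without it the week 8 change was 1.06.

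Mmp10, stromelysin 2 and the nearest homologue of Mmp3, peaked at 0.280 FPKQ and was at 0 in 64 libraries. Its week 16 means were 0.127 FPKQ in knockout vehicle and 0.00340 FPKQ in wild-type vehicle libraries, too low for a test. Mmp11, stromelysin 3, which acts little on classic matrix substrates, averaged 5.43 and 6.00 FPKQ in knockout and wild-type vehicle libraries of week 16. Mmp27 averaged 2.36 FPKQ in knockout vehicle and 0.526 FPKQ in wild-type vehicle libraries of week 16, with a log2 change of 1.1 ± 0.13 (SE; limma adjusted p = 2.69e-11). Mmp19, a basement membrane protease outside the cluster (chromosome 10), was at 16.8, 30.6 and 48.2 FPKQ in knockout vehicle and 3.52, 5.13 and 9.71 FPKQ in wild-type vehicle libraries of week 16, a log2 change of 2.22 ± 0.20 (SE; limma adjusted p = 2.16e-16). The knockout over wild-type ratio of its means was 2.44, 3.90 and 5.41 in weeks 3, 8 and 16. Both genes parted the vehicle groups without overlap in weeks 8 and 16.

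**Figure D3:**
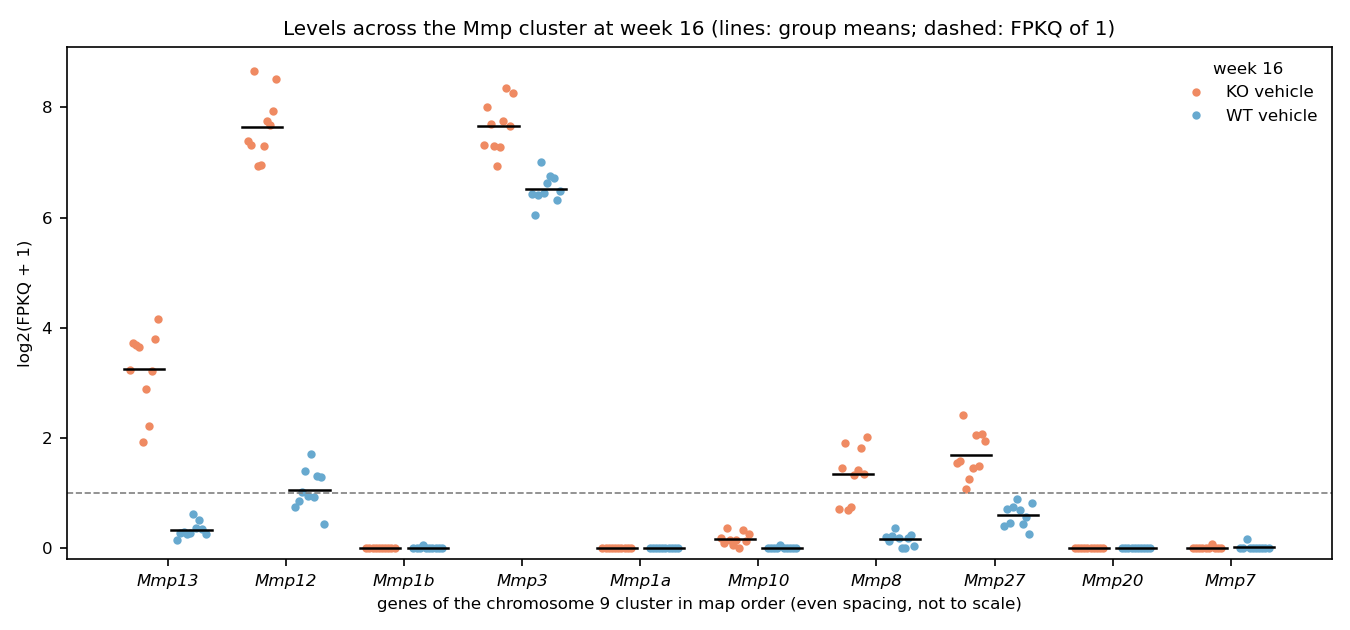
Levels as log2(FPKQ + 1) of the 10 chromosome 9 cluster genes in map order, evenly spaced, in each knockout vehicle and wild-type vehicle library (points) of week 16, with lines at the group means and a dashed line at 1 FPKQ. Mmp12 and Mmp3 are the abundant knockout genes (medians 185.9 and 204.2 FPKQ), Mmp13, Mmp8 and Mmp27 are low but parted, and Mmp1b, Mmp1a, Mmp10, Mmp20 and Mmp7 stay below 1 FPKQ.

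The gelatinases went apart. Mmp2, a gelatinase of fibroblasts and smooth muscle cells, was at 85.5, 121.3 and 141.7 FPKQ in knockout vehicle, against 56.2, 69.6 and 80.6 FPKQ in wild-type vehicle libraries of week 16. The groups did not overlap, and the log2 change was 0.78 ± 0.15 (SE; limma adjusted p = 9.06e-06). In week 8 the knockout vehicle libraries held 70.4, 106.2 and 123.0 FPKQ and the 5 wild-type vehicle libraries 66.3, 65.9, 60.7, 143.8 and 74.8 FPKQ, where replicate 4 lies above every knockout value. The week 8 change was 0.38 (95% interval 0.03 to 0.74, limma adjusted p = 0.151), and 0.60 with an adjusted p of 0.0175 without replicate 4. In week 3 it was -0.09 (limma adjusted p = 0.697).

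Mmp9, the gelatinase of macrophages and neutrophils, was low and went the other way. It averaged 1.36 ± 0.890 FPKQ in knockout vehicle and 2.40 ± 0.557 FPKQ in wild-type vehicle libraries of week 16 (SD, n = 10 each), a log2 change of -0.57 ± 0.18 (SE; limma adjusted p = 0.00882). The groups overlapped, with knockout replicate 2 at 3.80 FPKQ. In week 8 the change was -0.74 (limma adjusted p = 0.0128), but -0.47 with an adjusted p of 0.164 without wild-type replicate 4, which held 5.90 FPKQ of Mmp9. That library also held the highest macrophage (877.3 FPKQ), fibroblast (5769 FPKQ) and chondrocyte (127.2 FPKQ) sums of its group. Their part in its Mmp2, Mmp3, Mmp9 and Timp1 values was not tested. On Scl-Ab, Mmp9 was called in no week (adjusted p = 0.300, 0.262 and 0.0597 in weeks 3, 8 and 16).

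Of the membrane-bound enzymes, Mmp14, the activator of the Mmp2 precursor, was at 54.8, 73.5 and 97.98 FPKQ in knockout vehicle, against 34.99, 39.2 and 45.9 FPKQ in wild-type vehicle libraries of week 16. No library overlapped in weeks 8 or 16. Log2 changes were 0.06, 0.78 and 0.93 in weeks 3, 8 and 16 (limma adjusted p = 0.775, 0.000167 and 1.25e-08). The rest of the class did not follow it: Mmp15 was called in no comparison of genotypes, and Mmp16 and Mmp17 were lower in knockout on vehicle in week 3 and on Scl-Ab in week 16. Mmp17 averaged 19.8 and 26.2 FPKQ in knockout and wild-type Scl-Ab libraries of week 16, a log2 change of -0.42 ± 0.15 (SE; limma adjusted p = 0.0195). Mmp23 averaged 80.2 FPKQ in knockout and 78.4 FPKQ in wild-type vehicle libraries of week 16.

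Timp1, the inhibitor whose gene responds to injury and inflammation, changed most among the inhibitors. It was at 159.4, 229.1 and 557.9 FPKQ in knockout vehicle libraries of week 16, against 23.4, 30.9 and 42.0 FPKQ in wild-type vehicle libraries. The lowest knockout value was above the highest wild-type value. In week 8 the knockout vehicle libraries held 142.7, 204.6 and 401.9 FPKQ and the wild-type vehicle libraries 25.4, 35.8, 26.3, 190.6 and 32.5 FPKQ, so that replicate 4 alone made the groups overlap. In week 3 the values were 21.8, 46.0 and 268.8 FPKQ in knockout vehicle and 17.6, 24.5 and 73.2 FPKQ in wild-type vehicle libraries, which overlapped widely. Log2 changes were 1.0 ± 0.34, 2.28 ± 0.37 and 3.07 ± 0.30 in weeks 3, 8 and 16 (SE; limma adjusted p = 0.0227, 6.67e-07 and 4.14e-15). The week 8 change was 2.81 without replicate 4.

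The other inhibitors moved little. Timp2, which pairs with Mmp14 to activate Mmp2, averaged 473.5 ± 36.8 FPKQ in knockout vehicle and 391.4 ± 33.3 FPKQ in wild-type vehicle libraries of week 16 (SD, n = 10 each), a log2 change of 0.28 ± 0.10 (SE; limma adjusted p = 0.0259). Timp3 averaged 542.9 ± 53.7 FPKQ in knockout and 454.7 ± 27.7 FPKQ in wild-type vehicle libraries (SD, n = 10 each), with a change of 0.25 ± 0.10 (SE; limma adjusted p = 0.0397) that was lost with 9 of 20 libraries left out in turn and was not called on Scl-Ab. Timp4 was lower in knockout on Scl-Ab in week 3 alone, at 4.49 FPKQ in knockout Scl-Ab and 11.6 FPKQ in wild-type Scl-Ab libraries on average. That call was lost without the 29 libraries rich in markers of neighbouring tissue. Among those were 4 of the 6 wild-type Scl-Ab libraries of week 3. Timp1, Timp3 and Timp4 overlap Syn1, Syn3 and Syn2 on the opposite strand, and whether counting used strand is not given in the sources used here.

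Among the proteoglycan-cleaving ADAMTS enzymes, Adamts4 and Adamts1 went in opposite directions. Adamts4, aggrecanase 1, averaged 2.07 ± 0.803 FPKQ in knockout vehicle and 0.803 ± 0.2 FPKQ in wild-type vehicle libraries of week 16 (SD, n = 10 each), a log2 change of 0.74 ± 0.11 (SE; limma adjusted p = 1.37e-08) without overlap. Adamts1, the abundant member, was at 36.6, 54.3 and 80.1 FPKQ in knockout vehicle and 54.1, 78.1 and 107.8 FPKQ in wild-type vehicle libraries, which overlapped, with a change of -0.54 ± 0.19 (SE; limma adjusted p = 0.0169). It was lower on Scl-Ab as well, by -0.78 (limma adjusted p = 0.000837). Adjusted for 2 components of 15 circadian clock genes, the adjusted p-values of Adamts1 became 0.234 on vehicle and 0.087 on Scl-Ab, and the Scl-Ab call was also lost without the libraries of high carry-over described below (0.0585). Of those clock genes, 6 were lower and 1 higher in knockout vehicle libraries, where 21.1% and 15.5% of all genes were. Adamts5, aggrecanase 2, averaged 11.2 and 12.0 FPKQ in knockout and wild-type vehicle libraries of week 16, a change of -0.10 (95% interval -0.28 to 0.09, limma adjusted p = 0.465).

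Adamts7, a protease of cartilage oligomeric matrix protein (COMP) and a human coronary risk gene, averaged 1.07 ± 0.332 FPKQ in knockout vehicle and 0.418 ± 0.0760 FPKQ in wild-type vehicle libraries of week 16 (SD, n = 10 each). No values overlapped, and the log2 change was 0.53 ± 0.08 (SE; limma adjusted p = 7.84e-08). Its substrate gene Comp was higher too, by 1.38 (limma adjusted p = 5.85e-07), and it is also one of the chondrocyte markers above. Adamts12, the close relative of Adamts7, averaged 0.797 and 0.765 FPKQ in knockout and wild-type vehicle libraries. Adamts6 was lower in knockout, at 2.93 FPKQ against 4.38 FPKQ in wild-type vehicle libraries on average, by -0.47 on the log2 scale (limma adjusted p = 0.00306). Adamts2, which removes the N-propeptide of fibrillar procollagens, averaged 50.3 FPKQ in knockout and 39.4 FPKQ in wild-type vehicle libraries (log2 change 0.35, limma adjusted p = 0.0216). Of the 5 ADAMTS-like genes none was called in week 16 on vehicle, while on Scl-Ab Adamtsl1 (-0.36) and Adamtsl3 (-0.31) were lower and Adamtsl4 (0.17) higher.

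Genes with groups that did not overlap numbered 1 in week 3 (Mmp12), 6 in week 8 (Mmp12, Mmp13, Mmp14, Mmp19, Mmp27 and Mmp8) and 10 in week 16 (those 6 with Mmp2, Timp1, Adamts4 and Adamts7) among tested members in knockout over wild-type vehicle libraries. Over all tested genes 0.956%, 4.55% and 6.48% lay above without overlap. On Scl-Ab the members numbered 3, 7 and 9, against 3.11%, 5.34% and 7.34% of all genes. Mmp13, Mmp8, Adamts4 and Adamts7, which passed the filter through knockout libraries, are among the members counted, so nothing is read from the counts beside these shares.

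The vehicle difference between genotypes was larger in week 16 than in week 3 for several members. Week, age and sequencing batch, which is not assigned to libraries, cannot be told apart in comparisons between weeks. The vehicle change of week 16 exceeded that of week 3 for 10 members, against 3.29% of all genes, and fell short of it for 0, against 0.922% (4.22% either way). The 10 were Mmp13 (by 2.25 ± 0.35 on the log2 scale, limma adjusted p = 4.46e-06), Timp1 (2.07 ± 0.45, 0.00154), Mmp12 (1.99 ± 0.38, 0.000236), Adamts15 (1.80), Mmp19 (1.07), Mmp2 (0.88), Mmp14 (0.86), Adamts4 (0.63), Adamts7 (0.47) and Adamtsl4 (0.29). From week 3 to week 8 a higher change was called for 2 members, Mmp12 (1.93) and Adamtsl4 (0.44), and a lower one for 0, where 0.253% and 0.0205% of all genes were. Adamtsl4 and Adamts15 were called lower in knockout vehicle libraries in week 3 and were not called in weeks 8 and 16. Their higher change is therefore not a wider difference. For Mmp13 the change of week 8 exceeded that of week 3 by 1.25 (95% interval 0.50 to 2.01, limma adjusted p = 0.136) and for Timp1 by 1.28 (0.30 to 2.26, 0.262). Markers of fat, muscle, heart and thymus, tissues that lie against the arch and could be carried over, were high in 29 libraries, 7 of them in the vehicle groups of week 3. Without those 29, only Mmp13 kept its call for week 16 (by 2.20), and Mmp12 missed it at an adjusted p of 0.0564. Adamts15 averaged 12.8 and 54.5 FPKQ in knockout vehicle libraries of weeks 3 and 16, and 31.4 and 34.2 FPKQ in wild-type vehicle libraries of those weeks. It was lower in knockout in week 3 (-1.11), and its change of 0.68 in week 16 was not called (limma adjusted p = 0.056).

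Seen as shares of the summed Mmp level, Mmp12 weighed more in knockout than in wild-type aorta, and with it the cluster that holds it. Mmp12 made up 26.6 ± 6.22% of the summed Mmp level in knockout vehicle and 0.342 ± 0.154% in wild-type vehicle libraries of week 16 (SD, n = 10 each). The chromosome 9 cluster as a whole, Mmp12 included, made up 54.8 ± 5.89% in knockout and 28.2 ± 4.03% in wild-type vehicle libraries. Mmp3 held about the same share in both, 26.6% in knockout and 27.6% in wild-type vehicle libraries, while Mmp23 held 10.6% and 23.5%. The summed Mmp level was 787.0 ± 182.1 FPKQ in knockout vehicle and 334.3 ± 26.2 FPKQ in wild-type vehicle libraries. In week 3 it was 334.3 ± 142.9 and 274.6 ± 66.9 FPKQ in those groups (SD, n = 8 each).

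The summed Timp level was 1299 ± 152.6 FPKQ in knockout vehicle and 883.5 ± 50.9 FPKQ in wild-type vehicle libraries of week 16. Timp1 made up 20.9% of it in knockout and 3.47% in wild-type vehicle libraries, and Timp3 42.1% and 51.5%. Summed Mmp over summed Timp was 0.408, 0.560 and 0.601 in knockout vehicle libraries of weeks 3, 8 and 16, against 0.330, 0.344 and 0.378 in wild-type vehicle libraries. In week 16 the lowest knockout vehicle ratio, 0.465, lay above the highest wild-type vehicle ratio, 0.400. Sums of transcripts say nothing of active enzyme.

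**Figure D4:**
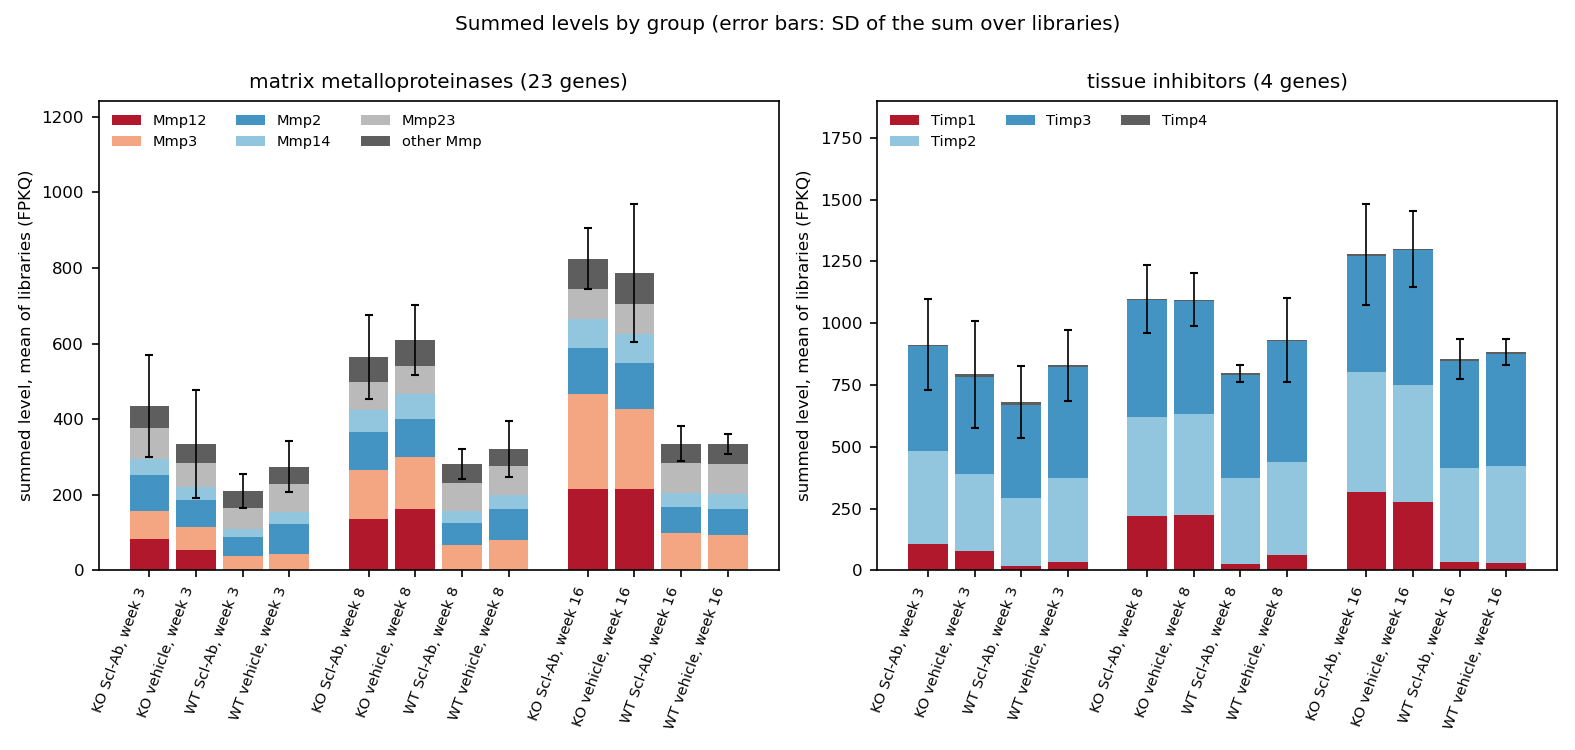
Stacked group means in FPKQ of Mmp genes (left) and Timp genes (right) in the 12 groups, with error bars for the SD of the sum over libraries, ordered by week and, within a week, knockout Scl-Ab, knockout vehicle, wild-type Scl-Ab and wild-type vehicle. In week 16 the Mmp stack reaches 824.6 and 787.0 FPKQ in the knockout groups and 334.8 and 334.3 FPKQ in the wild-type groups, and Mmp12 is too thin to see in wild type.

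In weeks 8 and 16 no member was called between Scl-Ab and vehicle in either genotype in the fit over all groups. In knockout mice of week 8, 4 members were called higher with scores of neighbouring-tissue markers as covariates, and 1 higher and 1 lower in the compared groups alone. In knockout mice 0 of 36 were called in week 8, against 0.704% of all genes higher and 1.11% lower (1.81% either way), and 0 in week 16, against 0% and 0.0137%. In wild-type mice 0 were called in week 8 (0% of all genes either way) and 0 in week 16 (0% and 0.00683%). At an unadjusted p under 0.05 in limma, 7 and 6 members passed in knockout mice in weeks 8 and 16, and 4 and 1 in wild-type mice, where 2523, 2103, 1497 and 797 of all genes did. No member was called for a different Scl-Ab response of the genotypes in week 8 or week 16, where 0% of all genes were, and 0 and 1 members passed an unadjusted p under 0.05, as did 1037 and 309 genes.

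These nulls come with intervals. Mmp12 was at 82.8, 212.3 and 364.9 FPKQ in knockout Scl-Ab and 121.5, 185.9 and 404.7 FPKQ in knockout vehicle libraries of week 16. The groups covered the same range, and the log2 change of 0.03 had a 95% interval of -0.46 to 0.53 (limma adjusted p = 0.959). For Mmp13 the week 16 interval in knockout mice was -0.50 to 0.41, for Mmp14 -0.27 to 0.26, and for Mmp2 -0.30 to 0.28. Mmp3 averaged 249.9 ± 72.4 FPKQ in knockout Scl-Ab and 210.7 ± 68.0 FPKQ in knockout vehicle libraries (SD, n = 10 each; interval -0.16 to 0.69), and Timp1 318.4 ± 101.8 and 277.9 ± 116.01 FPKQ in the same groups (interval -0.37 to 0.81). Each interval is for a single gene and is not adjusted for the number of genes tested. Changes within these bounds remain possible, and no limit of detection was computed.

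The smallest adjusted p among members in knockout mice was 0.0914 for Adamts15 in week 8 and 0.122 for Adamtsl3 in week 16. Adamts1 averaged 38.5 ± 11.8 FPKQ in knockout Scl-Ab and 54.8 ± 15.02 FPKQ in knockout vehicle libraries of week 8, and 38.3 ± 15.2 and 55.6 ± 13.9 FPKQ in those of week 16 (SD, n = 10 each). The groups overlapped both times. The log2 changes were -0.51 (95% interval -0.88 to -0.13) and -0.59 (-0.96 to -0.22), and neither was called (limma adjusted p = 0.132 and 0.151). In week 3 the same groups averaged 35.6 and 34.6 FPKQ.

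Week 3 stood apart. In wild-type mice 12 of 36 members were lower on Scl-Ab and 0 higher, against 13.2% of all genes lower, 13.7% higher and 26.9% either way. The 12 were Adamts1, Adamts2, Adamts5, Adamts8, Adamts9, Adamts14, Adamts15, Adamtsl2, Adamtsl3, Adamtsl4, Mmp2 and Mmp14, with log2 changes from -1.27 (Adamts15) to -0.26 (Adamtsl4). Adamts1 was at 24.3, 31.2 and 55.98 FPKQ in wild-type Scl-Ab libraries, against 33.9, 74.99 and 100.5 FPKQ in wild-type vehicle libraries, a change of -1.09 ± 0.23 (SE; limma adjusted p = 0.000433). The groups overlapped only through vehicle replicate 4 at 33.9 FPKQ, below the 67.3 to 100.5 FPKQ of the other 7. Mmp14 averaged 21 ± 4.07 FPKQ in wild-type Scl-Ab (n = 6) and 32.2 ± 5.30 FPKQ in wild-type vehicle libraries (n = 8), a change of -0.60 (limma adjusted p = 0.00483). Of 19 tested matrix substrate genes of the families, 13 were lower in the same comparison and 0 higher, among them elastin (Eln, -1.85) and fibrillin 1 (Fbn1, -0.88). No member's groups lay apart without overlap, where 1% of all genes lay below.

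Markers of neighbouring tissue moved with these changes. In the same comparison 6 of 13 white fat markers and 8 of 11 brown fat markers were called higher and 0 lower, with summed medians of 1895 and 3434 FPKQ in wild-type Scl-Ab libraries and 715.2 and 699.6 FPKQ in wild-type vehicle libraries, and 3 of 10 smooth muscle markers were lower. Of 15 clock genes, 3 were higher and 4 lower. Of all tested genes in this comparison 13.7% were higher and 13.2% lower. With scores of 5 neighbouring tissues as covariates, Adamts1 and Adamts9 kept their calls of the 12. With 2 clock components none did, and without the 29 libraries of high carry-over, 4 of the 6 wild-type Scl-Ab libraries among them, none did either. Without vehicle replicate 4, itself a library of high fat and heart markers, 16 members were lower and 3 higher. The same 8 wild-type vehicle libraries of week 3 serve the comparison with knockout vehicle, in which Adamts1 (-1.07), Adamts9 (-0.78), Adamts15 (-1.11), Adamtsl3 (-0.36) and Adamtsl4 (-0.29) were also lower.

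**Figure D5:**
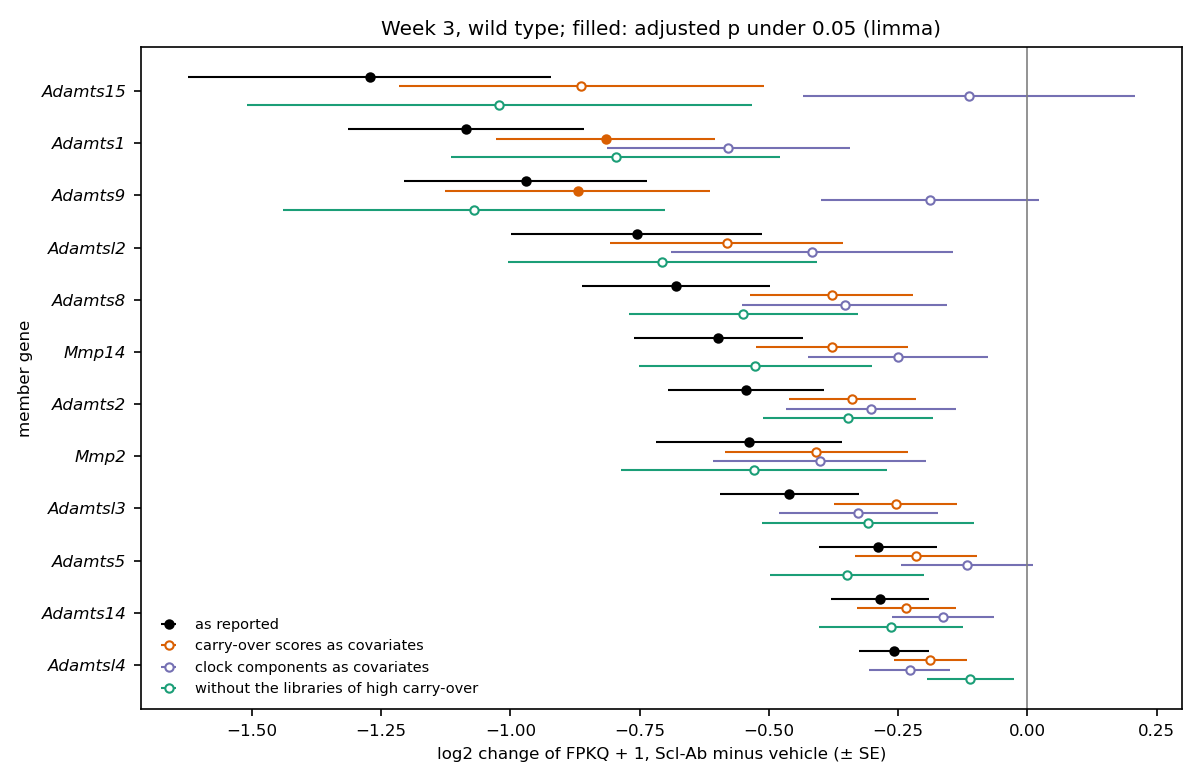
Log2 changes with bars of 1 SE either way for the 12 members called between wild-type Scl-Ab and wild-type vehicle libraries in week 3, under 4 settings: as reported, with carry-over scores, with clock components, and without the libraries of high carry-over. Filled points mark an adjusted p under 0.05. All 12 are filled as reported, Adamts1 and Adamts9 with carry-over scores, and none in the other 2 settings.

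In knockout mice of week 3, 6 members were higher on Scl-Ab and 2 lower, against 5.51% and 3.63% of all genes, 9.15% either way. Higher were Mmp11 (0.59 ± 0.11 SE, limma adjusted p = 0.000667), Adamtsl4 (0.29), Mmp16 (0.35), Adamts10 (0.48), Mmp12 (0.95) and Adamtsl5 (0.56), and lower were Timp4 (-0.81) and Adamts9 (-0.69). Mmp11 was at 6.36, 7.99 and 9.08 FPKQ in knockout Scl-Ab and 3.78, 4.78 and 7.93 FPKQ in knockout vehicle libraries. Its groups overlapped in part, and its call alone stood under all 8 alternatives. Mmp12 averaged 82.6 ± 45.4 FPKQ in knockout Scl-Ab (n = 9) and 55.3 ± 66.96 FPKQ in knockout vehicle libraries (n = 8), with a vehicle range of 8.83 to 217.6 FPKQ. Its call was lost under 4 of the 8 alternatives, among them a pseudocount of 0.1 (adjusted p = 0.0582). The count of 8 became 3 without knockout vehicle replicate 1 and 12 without knockout Scl-Ab replicate 9.

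The response to Scl-Ab differed between genotypes in week 3 for 14 members: 13 had a higher change in knockout than in wild-type mice and Timp4 a lower one, against 6.85% and 11.3% of all genes. Adamtsl4 (0.54 ± 0.09), Adamts2 (0.86 ± 0.20) and Mmp2 (0.97 ± 0.24) led by p (SE; limma adjusted p = 0.000382, 0.00571 and 0.00618). In Mmp2 the means were 95.3 and 69.7 FPKQ in knockout Scl-Ab and vehicle libraries, and 50.3 and 77.8 FPKQ in wild-type Scl-Ab and vehicle libraries. None of the 14 was called in a fit on the week 3 groups alone, with carry-over scores, or without the libraries of high carry-over. The count ran from 7 to 19 with each library left out.

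Related genes outside the families were read from lists. In knockout over wild-type vehicle libraries of week 16, 13 of 18 tested matrix-degrading proteases of other families were higher and 1, Adam33, lower, where 15.5% of all tested genes were higher and 21.1% lower. The higher ones included the cathepsin Ctss (log2 change 4.51), the metalloproteinase-disintegrin Adam8 (3.78), Ctsb (1.55) and Ctsd (1.51). Of 21 activators and inhibitors outside the families 7 were higher and 5 lower: Lcn2, which binds Mmp9, by 5.77, Thbs1 by 2.91 and the plasminogen activator Plau by 1.55 were higher, and the proprotein convertase Pcsk5 was lower by -0.77. Of 19 substrates 6 were higher, with Fn1 at 1.26, Col1a1 at 0.82 and Col3a1 at 0.79, and Lamb2 alone was lower. Ctss, Ctsb, Ctsd and Adam8 are also expressed by macrophages.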

How the data were processed

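Polyadenylated RNA of 103 aortic arches was sequenced from stranded libraries, per the labels' protocols. The authors deposited 1 table per library of gene symbols and FPKQ values, treated here as an fpkm unit; the labels do not define it, and the submitters' processing notes name GRCm38 and DESeq2 1.10.1 with no role. Without read counts no count model was run, and depth and counting error are unknown.

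The tables were joined by symbol. Genes at 1 or more in at least 5 libraries (14637 of 51456) were fitted in limma 3.58.1 (R 4.3.3) on log2(FPKQ + 1) with 12 group means and a robust intensity trend, and p-values were adjusted over all of them by Benjamini-Hochberg, separately in each of 17 comparisons. Non-overlap means that every library of one group lay above every library of the other. The test was also run on simulated data, with an outcome not given here. Replicate numbers of different groups did not pair the animals. The 3 sequencing batches are not assigned to libraries, so within-batch values were not computed.

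The families to report, the gene lists and the tests were chosen with earlier results of these data known, although the members follow from their symbols. Any member may be named, and from other lists up to 4 called genes by adjusted p, plus genes that complete a count. Alternatives were a pseudocount of 0.1, no filter, median-of-ratios rescaling, the compared groups alone, a replicate block, scores of 5 neighbouring tissues, 2 clock components and leaving out each library; leaving out 29 libraries with neighbouring-tissue markers over 2.5 median absolute deviations was added after the data were seen.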

Additional observations from a re-analysis of the deposited data

Results flagged for a closer look

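For 33 members in the 12 groups of 5 to 10 libraries, 37 of 396 combinations of member and group held a library far from the rest by Dixon's test on log2(FPKQ + 1), 9.34% where the nominal rate is about 5%. Members share libraries, and wild-type vehicle replicate 4 and knockout Scl-Ab replicate 9 of week 3 gave 9 and 6 of the flags. No excess is therefore read from the 9.34%. Wild-type vehicle replicate 4 of week 3 was low for Adamts1 (33.9 FPKQ), Adamts10 (16.57), Adamtsl5 (18.45), Mmp14 (21.4), Mmp16 (0.8705), Mmp17 (9.4), Mmp23 (30.64) and Timp3 (296.6) and high for Adamts7 (1.133). Knockout Scl-Ab replicate 9 of week 3 was low for Adamts2 (18.31), Adamts8 (3.034), Adamtsl2 (3.627), Mmp17 (7.989), Mmp23 (25.71) and Timp2 (195.8). These are the libraries with low smooth muscle and high fat and heart marker sums given above. Wild-type vehicle replicate 4 of week 8 was high for Mmp2 (143.8), Mmp3 (143.6) and Timp1 (190.6), with the highest macrophage, fibroblast and chondrocyte sums of its group. Wild-type Scl-Ab replicate 6 of week 16 was high for Mmp8 (2.639), Mmp2 (98.63) and Mmp23 (100.9). Knockout vehicle replicate 2 of week 16 was low for Adamts10 (21.48) and Adamtsl5 (32.63) and high for Mmp9 (3.796).

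The remaining libraries stood out by 1 or 2 members. In week 3 these were knockout vehicle replicate 4, high for Mmp13 (4.471 FPKQ) and Mmp19 (31.55), knockout vehicle replicate 1, low for Adamtsl4 (7.999) and Mmp16 (0.6452), and wild-type Scl-Ab replicate 2, low for Adamts14 (0.4697). In week 8 they were knockout Scl-Ab replicate 8, high for Adamts5 (13.11), knockout Scl-Ab replicate 7, low for Adamtsl3 (5.799), and wild-type Scl-Ab replicate 7, low for Mmp12 (0.134). In week 16 they were knockout Scl-Ab replicate 7, low for Mmp12 (82.84) and Timp3 (269.4), wild-type Scl-Ab replicate 8, low for Adamts1 (29.39) and high for Mmp12 (3.866), and wild-type vehicle replicate 4, high for Timp4 (11.08).

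Other values drew attention because 2 groups responded differently to the same contrast in a test of that difference in limma. For the Scl-Ab response of knockout against that of wild-type mice in week 3, not all of the 14 called members are listed. The log2 differences of those listed were 0.375 (Adamts14), 0.8578 (Adamts2), 0.5855 (Timp2), 0.8353 (Mmp14), 1.1235 (Adamts1), 0.5437 (Adamtsl4), 0.4857 (Mmp16), 0.7433 (Mmp23), -1.3893 (Timp4), 0.5729 (Adamtsl3), 0.975 (Mmp2) and 0.8845 (Adamts8). For the knockout effect of week 8 against that of week 3 they were 0.443 (Adamtsl4) and 1.9267 (Mmp12). For week 16 against week 3 they were 0.6316 (Adamts4), 1.0695 (Mmp19), 0.8639 (Mmp14), 0.2893 (Adamtsl4), 0.879 (Mmp2), 2.25 (Mmp13), 1.9919 (Mmp12), 1.7965 (Adamts15), 0.4672 (Adamts7) and 2.0741 (Timp1). How these differences change with the processing is given below.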

How the results depend on the processing

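Member counts at weeks 8 and 16 between genotypes were the steadier ones. With each library left out in turn, knockout against wild type on vehicle gave 9 to 12 called members in week 8 and 15 to 18 in week 16, and on Scl-Ab 12 to 15 and 18 to 21. The week 8 Scl-Ab count of 13 became 20 in the compared groups alone. The week 3 counts depended on the setting. Knockout against wild type on vehicle (13) became 6 in the compared groups alone, 5 with clock components and 8 without the 29 libraries of high carry-over (10 to 18 with a library left out). On Scl-Ab (20) it became 11 alone, 13 with carry-over scores and 4 without those libraries (14 to 22). Scl-Ab against vehicle in wild type (12) became 4 alone, 2 with carry-over scores, and 0 with clock components and 0 without those libraries (9 without wild-type Scl-Ab replicate 2 to 19 without wild-type vehicle replicate 4). In knockout (8) it became 1 alone and 4 without those libraries (3 to 12, with 3 without knockout vehicle replicate 1 and 12 without knockout Scl-Ab replicate 9). The difference of the 2 responses (14) became 0 alone, 0 with carry-over scores and 0 without those libraries (7 without wild-type Scl-Ab replicate 4, 9 without its replicate 2 or knockout vehicle replicate 1, and up to 19). Scl-Ab against vehicle in knockout in week 8 (0) became 2 alone and 4 with carry-over scores (0 to 1, the 1 without vehicle replicate 10 or Scl-Ab replicate 5). The difference of the knockout effect between weeks 8 and 3 (2) became 1 with a pseudocount of 0.1, and 0 alone, with carry-over scores and without those libraries (1 without knockout vehicle replicate 3 of week 3 or wild-type vehicle replicate 3 of week 8, to 4 without knockout vehicle replicate 4 of week 3). The difference between weeks 16 and 3 (10) became 1 without those libraries (9 to 15). The cause was not tested.

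Of 137 single log2 changes, a pseudocount of 0.1 and median-of-ratios rescaling each ended 3 calls, no filter 13, the compared groups alone 44, carry-over scores 35, clock components 29 and leaving out the 29 libraries 58. With a library left out, 2611 of 2745 values kept direction and call. Direction turned in 6, all of them the change of Mmp12 between Scl-Ab and vehicle in knockout in week 16 (0.03 as reported): -0.0035, -0.0054, -0.0233, -0.0441, -0.0468 and -0.0604, with a highest value of 0.1758. Rescaling moved the median of all genes by at most 0.0637 on the log2 scale. Replicate numbers share no animal, and the deviations of same-numbered libraries from their group means were mixed. Their median correlation ran from -0.186 (Scl-Ab against vehicle, knockout, week 3) to 0.259 (knockout against wild type, Scl-Ab, week 16). In the latter, 6 of 8 pairs lay above 0.1, and the highest single pair, 0.790, was in Scl-Ab against vehicle, wild type, week 3. With the replicate block, the vehicle counts of knockout against wild type were 13, 11 and 17 in weeks 3, 8 and 16, and 3 of 137 single calls were lost. Depth in reads is unknown, so the precision of members near 1 FPKQ, such as Mmp8, Adamts4 and Adamts7, rests on the spread between libraries alone.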
